A study of Mus musculus with 12 samples.

Results

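Xbp1, Hspa5, Hsp90b1, Pdia4, Pdia6, Calr, Dnajb9, Edem1, Sdf2l1 and Herpud1 are genes of the XBP1 and ATF6 branches of the unfolded protein response. They were followed in mouse follicular B cells, wild type or labelled Zfx cko, before and after crosslinking of the B cell receptor. All probe sets annotated to these 10 genes were taken, which gave 22 of the 45101 probe sets on the array. All 10 genes and 21 of their probe sets passed the filter on dim probe sets, among 12190 genes that did, and the exception was a second Pdia4 probe set.

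Spleens of male 129SvEv mice, 8 weeks old, had given the cells, which were flow sorted as B220+, AA4.1-, CD23hi and CD21int. They were kept in culture with anti-IgM at 10 µg/mL, an antibody that crosslinks the receptor. The 6 groups were wild type at 0, 2 and 12 h and Zfx cko at 0, 2 and 12 h, with 2 arrays in each, and every cell had passed through the same sort. Zfx encodes a zinc finger transcription factor, and the sources used here do not name the Cre driver or the deleted part of the cko allele. RNA was amplified in 2 rounds and hybridized in duplicate, so the spread between the 2 arrays of a group, on which every p-value rests, may be technical.

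When unfolded proteins build up in the endoplasmic reticulum (ER), the sensor IRE1 splices Xbp1 mRNA into a form that encodes an active transcription factor, and ATF6 is cleaved in the Golgi to release another. Both factors raise chaperones, oxidoreductases and components of ER-associated degradation (ERAD), the route that returns misfolded proteins to the cytosol for destruction. The third sensor, PERK, slows translation and acts through ATF4. In B cells XBP1 is known for its part in the secretory expansion of plasma cells. Splicing of Xbp1 mRNA was not analysed here.

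ATF6 with NF-Y, and XBP1, are known to bind the ER stress response element (ERSE), searched here as CCAAT and CCACG with 9 bases of any kind between them, and ERSE-II, searched as ATTGG and CCACG with 1 base between them. Both strands were searched in RefSeq promoter windows of GRCm38.p6, each running from 250 bases before to 50 bases after an annotated start. ERSE lay in 4 of the 10 windows of these genes, namely Hspa5, Hsp90b1, Pdia6 and Calr, against 0.119% of all 32851 windows. ERSE-II lay in Herpud1 alone among the 10, against 0.0365% of all windows. The XBP1 element TGACGTGG was in 0 of the 10 and in 0.676% of all windows. The CCACG that ends both ERSE and ERSE-II, counted wherever it occurs, was in 9 of the 10, all but Xbp1, and in 32.8% of all windows. The 250 bases before the start are given for the 5 genes with either element, because they show the sequence that sets these genes apart from the other members. Capitals mark ERSE in the first 4 and ERSE-II in Herpud1, and elements on the opposite strand read as their reverse complement.
Hspa5 (chr2:34771840-34772089, plus strand): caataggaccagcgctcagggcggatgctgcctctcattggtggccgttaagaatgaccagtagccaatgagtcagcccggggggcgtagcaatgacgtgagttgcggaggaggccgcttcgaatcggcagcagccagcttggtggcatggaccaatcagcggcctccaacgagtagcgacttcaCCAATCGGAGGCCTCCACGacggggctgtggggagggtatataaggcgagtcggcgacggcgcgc
Hsp90b1 (chr10:86705445-86705694, minus strand): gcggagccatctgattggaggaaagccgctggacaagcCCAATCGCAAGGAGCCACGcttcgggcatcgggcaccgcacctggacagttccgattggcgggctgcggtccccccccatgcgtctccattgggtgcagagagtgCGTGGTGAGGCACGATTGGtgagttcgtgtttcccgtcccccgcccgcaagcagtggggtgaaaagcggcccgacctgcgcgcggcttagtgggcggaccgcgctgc
Pdia6 (chr12:17266339-17266588, plus strand): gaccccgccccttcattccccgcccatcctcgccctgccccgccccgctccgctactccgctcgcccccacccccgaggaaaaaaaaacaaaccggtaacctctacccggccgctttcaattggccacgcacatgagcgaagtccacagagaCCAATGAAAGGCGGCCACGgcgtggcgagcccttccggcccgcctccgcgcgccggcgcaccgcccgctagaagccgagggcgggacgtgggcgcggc
Calr (chr8:84846932-84847181, minus strand): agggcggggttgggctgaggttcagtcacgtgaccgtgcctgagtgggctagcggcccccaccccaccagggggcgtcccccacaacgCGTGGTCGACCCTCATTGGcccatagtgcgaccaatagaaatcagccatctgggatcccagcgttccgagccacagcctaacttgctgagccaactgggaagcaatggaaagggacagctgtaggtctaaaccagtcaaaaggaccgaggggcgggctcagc
Herpud1 (chr8:94386179-94386428, plus strand): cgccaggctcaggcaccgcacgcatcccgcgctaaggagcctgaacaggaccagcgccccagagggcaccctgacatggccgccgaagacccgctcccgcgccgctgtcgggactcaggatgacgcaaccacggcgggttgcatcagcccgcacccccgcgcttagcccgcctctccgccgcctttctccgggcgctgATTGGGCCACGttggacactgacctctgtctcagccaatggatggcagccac
The Hspa5 element begins 65 bases before the start. Hsp90b1 has a pair that face each other, beginning 212 and 107 bases before it. In Pdia6 the element begins 98 bases before the start, in Calr 162 bases before it on the opposite strand, and in Herpud1 the ERSE-II begins 52 bases before it. A match describes these letters and is no evidence of binding in these cells.

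**Figure D1:**
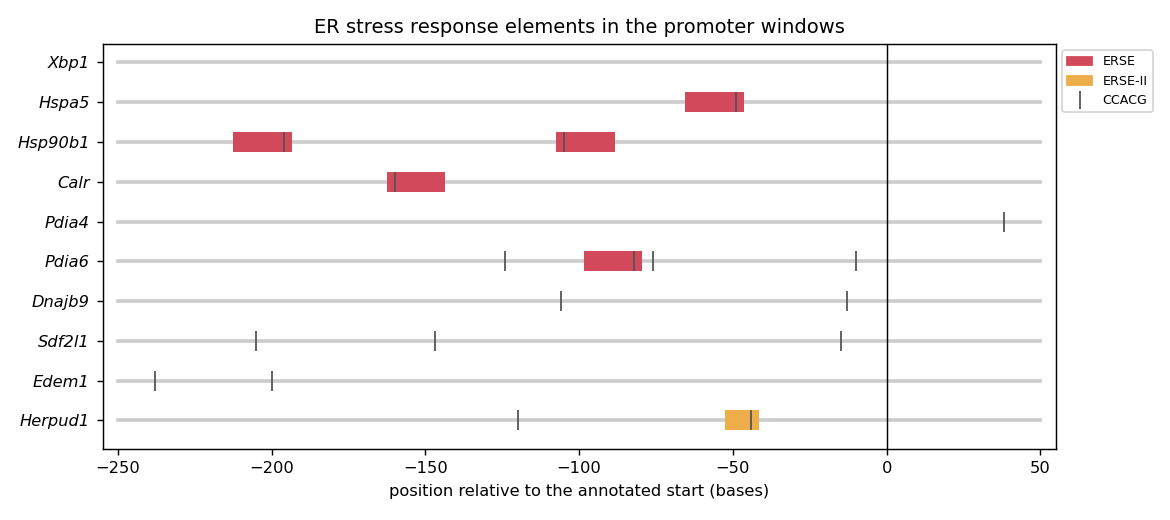
Positions of ERSE (red), ERSE-II (orange) and the CCACG core (ticks) in the windows from 250 bases before to 50 bases after the annotated start of each of the 10 genes, with 0 marking the start. ERSE lies in the windows of Hspa5, Hsp90b1, Calr and Pdia6, ERSE-II in that of Herpud1, and the Xbp1 window holds none of them.

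The arrays fell into 2 sets of 6 by their control probe sets, and this bears on every comparison below. The ratio of 5′ to 3′ signal for actin ran from 1.80 to 3.33% in wild type at 0 and 12 h and cko at 0 h, and from 8.41 to 19.1% in both genotypes at 2 h and cko at 12 h. Both genotypes at 0 h, both at 2 h, wild type at 0 and 12 h, and cko at 2 and 12 h can each be compared inside 1 set. The ratio also differed between groups of a set. It was 3.27 and 3.33% in wild type and 1.99 and 1.80% in cko at 0 h (2.62 and 2.42% against 1.58 and 1.54% for Gapdh), and 8.51 and 8.41% against 10.6 and 10.8% at 2 h. At 12 h it was 2.11 and 2.27% in wild type and 19.1 and 19.0% in cko. Its part in the differences inside a set was not tested. The other comparisons cross the sets, and there the groups and the division cannot be told apart. Duplicate arrays correlated at r = 0.983 to 0.989 over the 12190 genes tested, each by its brightest probe set above the filter. The brightest of 4 Zfx probe sets read higher on the arrays labelled cko at 0 h (1.23 ± 0.090 on the log2 scale), and since its place relative to the deletion is unknown it checks nothing. All 9 follicular B cell markers with a probe set were above the filter. Their summed signal was 93807 to 96281 in wild type and 113530 to 115100 in cko at 0 h, where 7 of the 9 were called higher in cko and 0 lower (0 in limma at an unadjusted p under 0.05), against 16.3% and 16% of all genes. The sum at 2 h was 50853 to 51402 and 49626 to 51472, with 1 called higher in cko and 6 lower, and at 12 h it was 56602 to 58331 and 59335 to 60105.

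In the sections on single genes, signals are linear intensities of the brightest probe set, and differences are on the scale log2(signal + 16) with the standard error of the limma fit, from 2 arrays a group. A difference was called at an adjusted p under 0.05, over all 12190 genes. No signal is set against that of another gene, since probes differ in brightness. Lack of overlap between 2 groups of 2 arrays is common. Between the genotypes it held for 64.3% of all genes at 0 h, 63.6% at 2 h and 75.8% at 12 h. In such bulk samples fewer cells of a type and less RNA per cell cannot be told apart.

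**Figure D2:**
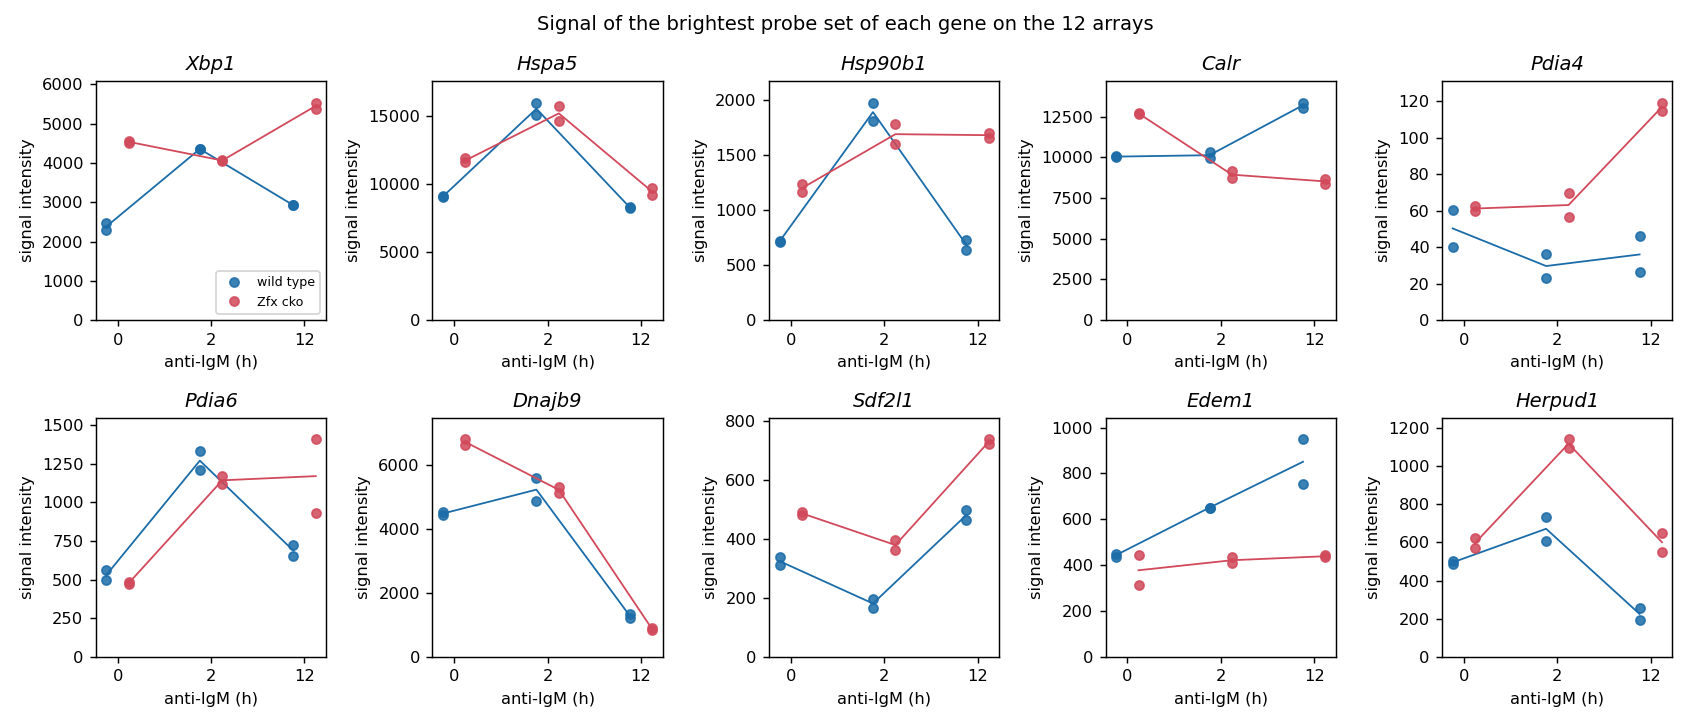
Signal intensity (linear, from 0) of the brightest probe set of each gene against time with anti-IgM (0, 2 and 12 h), with 1 point for each of the 12 arrays and lines through the means of 2 arrays, wild type blue and Zfx cko red. Xbp1 lies at 2290.1 and 2476 on the wild type arrays at 0 h and at 4516 and 4562 on those of cko, and Dnajb9 falls in both genotypes by 12 h.

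Xbp1, the transcription factor of the IRE1 branch, was 1.90-fold higher in cko than in wild type B cells before stimulation, and at 2 h its brightest probe set read nearly alike in both. Its signals were 2290.1 and 2476 in wild type and 4516 and 4562 in cko at 0 h. At 2 h they were 4346 and 4368 in wild type and 4071 and 4057 in cko. At 12 h they were 2924 and 2927 in wild type and 5534 and 5372 in cko. The genotypes did not overlap at any time, with cko above wild type at 0 and 12 h and just below it at 2 h. The difference at 0 h was 0.93 ± 0.054 (limma adjusted p = 1.01e-07), and all 4 Xbp1 probe sets were called higher in cko (0.52, 0.86 and 0.74 for the other 3). At 2 h the difference of -0.10 ± 0.054 was not called. The other 3 probe sets gave 0.13, 0.30 and 0.95 at 2 h, of which the last was called higher in cko, and the mean of the probe sets gave 0.32 and was called. In the order of levels by the brightest probe set, cko at 2 h, wild type at 2 h and cko at 0 h followed one another, and neither step was called. Between the ends of this run, cko at 2 h was called lower than cko at 0 h (-0.16 ± 0.054), a call lost without any 1 of the 4 arrays compared.

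The response of Xbp1 at 2 h was 0.87 in wild type and -0.16 in cko, and the test of their difference gave -1.03 ± 0.076 (limma adjusted p = 1.90e-06). The second brightest probe set gave 1.95 and 1.56 for the same responses, and there the difference between the responses, -0.38, was no longer called. That probe set read 479.7 and 413 in wild type and 623 and 666 in cko at 0 h, and 1677 to 2423 on all 6 arrays of the set with the higher actin ratio. All of those lay above all arrays of the other set. By 12 h in wild type the brightest probe set was 0.30 ± 0.054 above 0 h, and the second was at -0.035 and not called.

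Hspa5, which encodes BiP, the ER chaperone that holds the stress sensors inactive, was also higher in unstimulated cko cells, and its brightest probe set read highest at 2 h in both genotypes. At 0 h its signals were 9106 and 9049.6 in wild type against 11869 and 11570 in cko. At 2 h they were 15955 and 15076 in wild type and 14639 and 15714 in cko, and at 12 h 8205 and 8333 in wild type and 9685 and 9161 in cko. The genotypes overlapped at 2 h and at no other time. The genotype difference at 0 h was 0.37 ± 0.051 (limma adjusted p = 1.04e-04), and after quantile normalization it was 0.12 and not called. The second probe set gave 0.15 and the third 0.37, and neither was called. At 2 h the genotypes differed by -0.032 ± 0.051, which was not called. In cko Hspa5 fell from 2 to 12 h by 0.69 ± 0.051. In wild type the change from 0 to 12 h was -0.13, a call that was lost under median scaling and without any 1 of the 4 arrays compared, and the third probe set went the other way (0.62).

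Hsp90b1 encodes GRP94, the HSP90 of the ER, which folds integrins and Toll-like receptors. It read 720.5 and 709 in wild type and 1165 and 1233 in cko at 0 h. At 2 h it read 1805 and 1975 in wild type and 1778 and 1602 in cko. At 12 h the values were 636 and 732 in wild type and 1658 and 1703 in cko. Wild type cells stood high at 2 h alone, and cko cells at 2 and 12 h. Hsp90b1 was 1.66-fold higher in cko at 0 h (0.73 ± 0.086, limma adjusted p = 2.91e-05), and its second probe set gave 0.57. At 2 h the genotypes differed by -0.16 ± 0.086, which was not called, and the difference between the 2 h responses was -0.89 ± 0.12. Neither wild type from 0 to 12 h (-0.065) nor cko from 2 to 12 h (-0.0060) showed a called change. Both probe sets had every array of the higher actin set above every array of the other, so the rise at 2 h lies along that division.

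Calr, calreticulin, is the lectin chaperone that binds glucosylated glycoproteins and stores calcium in the ER lumen. Its signals were 10003 and 10075 in wild type and 12686 and 12702 in cko at 0 h. At 2 h they were 10316 and 9936 in wild type and 8708 and 9152 in cko, and at 12 h 13045 and 13346 in wild type and 8649.8 and 8379.5 in cko. By this probe set Calr in wild type was close to its level of 0 h at 2 h and high at 12 h, whereas in cko it was high at 0 h alone. The change in wild type at 2 h, 0.012, was not called, but after quantile normalization (0.15), under median scaling (0.21) and with the other probe sets (0.42 and 0.37) it was called higher. The genotype difference was 0.34 ± 0.045 at 0 h (limma adjusted p = 8.58e-05) and -0.18 ± 0.045 at 2 h, and the difference between the 2 h responses was -0.52 ± 0.064. Each of the 3 Calr probe sets was called higher in cko at 0 h and lower at 2 h. For the brightest, the call at 2 h was lost under median scaling (-0.17), without an intensity trend, without the first wild type array of 2 h (-0.15) and without the first cko array of 2 h (-0.15). From 0 to 12 h in wild type it rose by 0.39 ± 0.045.

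The protein disulfide isomerases Pdia4 and Pdia6, which form and rearrange disulfide bonds in new proteins, were not called between the genotypes at 0 h. Pdia4 was dim, with signals of 40.1 and 60.5 in wild type and 60.03 and 62.4 in cko at 0 h. It read 36.5 and 22.9 in wild type and 56.4 and 69.8 in cko at 2 h, and 26.1 and 45.9 in wild type and 115 and 119 in cko at 12 h. The wild type duplicates of Pdia4 lay far apart for their level, and the genotypes overlapped at 0 h and were apart at 2 and 12 h. The difference of 0.24 ± 0.28 at 0 h was not called. That at 2 h was 0.80 ± 0.28, with a limma adjusted p of 0.0443, and this call was lost after quantile normalization, without the filter and when any 1 of the 4 arrays at 2 h or of the other cko arrays was left out. The rise in cko from 2 to 12 h, 0.75 ± 0.28, was lost likewise with quantile normalization, a pseudocount of 1, no filter or any array of those 2 groups left out.

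Pdia6, which also attenuates IRE1 signalling, read 564 and 496 in wild type and 485 and 469.8 in cko at 0 h. At 2 h it read 1209 and 1331 in wild type and 1116 and 1169.5 in cko. At 12 h the wild type arrays gave 725 and 651 and those of cko 933 and 1407, the widest gap between duplicates for this gene. The higher actin set lay above the other throughout, as for Hsp90b1. The genotype differences inside a set were -0.14 ± 0.15 at 0 h and -0.15 ± 0.15 at 2 h, and neither was called. The 2 h responses of 1.24 and 1.23 differed by -0.0058 ± 0.21, and this was not called. The rise of 0.37 ± 0.15 in wild type by 12 h missed the threshold (limma adjusted p = 0.0523) and was called after quantile normalization (0.45) and in several other alternatives. The dimmer second probe set was not called at 2 h in wild type (-0.19) and was called lower in cko (-0.68), opposite to the brightest.

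Dnajb9 and Sdf2l1 work with BiP and were higher in unstimulated cko cells, but between 0 and 12 h in wild type, and between 2 and 12 h in cko, they changed in opposite directions. Dnajb9 encodes ERdj4, a J protein that directs BiP to misfolded clients and to IRE1. Its signals were 4541 and 4441 in wild type and 6812 and 6652 in cko at 0 h. At 2 h they were 5595 and 4884 in wild type and 5329.6 and 5138 in cko, and at 12 h 1356 and 1209 in wild type and 835 and 889 in cko. All 4 arrays of 12 h lay far below the other 8, and the genotypes overlapped at 2 h. The genotype difference at 0 h was 0.58 ± 0.074 (limma adjusted p = 5.63e-05) and at 2 h 0.0015, and the 2 h responses differed by -0.58 ± 0.10. In wild type it fell by 1.80 ± 0.074 from 0 to 12 h, which is 3.48-fold. In cko the fall from 2 to 12 h was -2.58 ± 0.074, or 5.98-fold. These were the largest changes over time among the 10 genes in the comparisons inside 1 set.

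Sdf2l1, whose product forms a complex with the BiP partner ERdj3, read 312 and 336 in wild type and 480 and 492 in cko at 0 h. At 2 h it read 166 and 196 in wild type and 394 and 363 in cko, and at 12 h 464 and 497 in wild type and 736 and 721 in cko. Both cko arrays were above both wild type arrays at every time, and the lowest values in either genotype were at 2 h. Sdf2l1 was 1.48-fold higher in cko at 0 h (0.56 ± 0.11, limma adjusted p = 0.00164) and 2.01-fold at 2 h (1.01 ± 0.11, limma adjusted p = 2.07e-05). The difference between its 2 h responses, 0.45 ± 0.16, was not called. It rose by 0.55 ± 0.11 from 0 to 12 h in wild type and by 0.92 ± 0.11 from 2 to 12 h in cko.

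Of the ERAD genes, neither Edem1 nor Herpud1 was called between the genotypes at 0 h and both were called at 2 h, in opposite directions. Edem1 encodes a mannosidase-like protein that passes glycoproteins on to degradation. It read 450.4 and 437 in wild type and 311 and 444 in cko at 0 h. At 2 h the signals were 651 and 651 in wild type and 435 and 408 in cko. At 12 h they were 948 and 754 in wild type and 443 and 435 in cko. The wild type arrays read higher at each later time, while 5 of the 6 cko arrays lay between 408 and 444 and the other, at 0 h, lower. The genotype difference was -0.24 ± 0.14 at 0 h, not called, and -0.61 ± 0.14 at 2 h (limma adjusted p = 0.00627). Without the second cko array of 0 h the first of these was -0.49 and called. The second Edem1 probe set gave 0.030 at 2 h, and for the change from 0 to 12 h in wild type the probe sets gave 0.91 and -0.082. The probe sets of Edem1 therefore describe different patterns.

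Herpud1 encodes a membrane protein that gathers the ERAD ubiquitin ligase complex. Its signals were 486 and 505 in wild type and 623 and 572 in cko at 0 h. At 2 h they were 734 and 609.6 in wild type and 1096 and 1141 in cko, and at 12 h 254 and 195 in wild type and 551 and 652 in cko. The genotypes did not overlap, and cko at 2 h stood above all other groups. At 0 h the difference of 0.26 ± 0.13 was not called, and the second probe set gave -0.33. At 2 h Herpud1 was 1.66-fold higher in cko (0.73 ± 0.13, limma adjusted p = 9.82e-04), with 1.10 by the second probe set. From 0 to 12 h in wild type it fell by 1.10 ± 0.13, and from 2 to 12 h in cko by 0.88 ± 0.13. The fall in wild type was not called with the second probe set (-0.48).

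**Figure D3:**
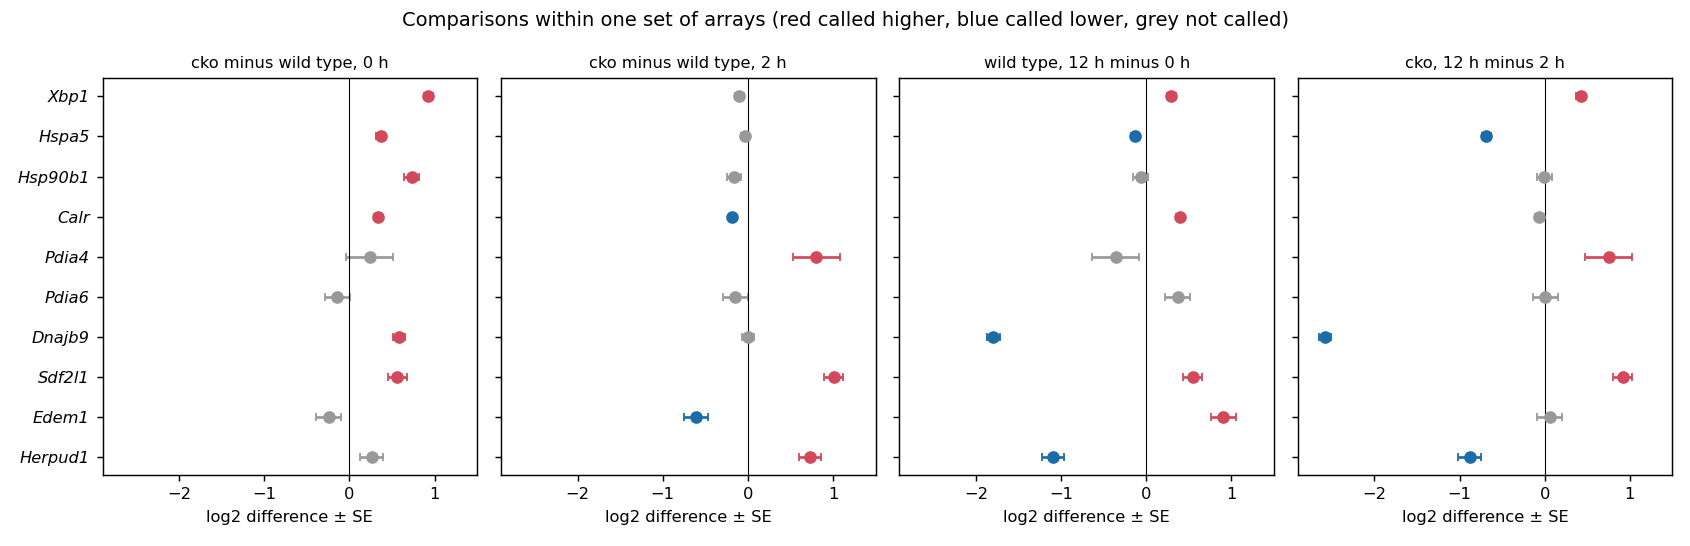
Differences on the log2(signal + 16) scale (points) with their standard errors (bars) for the 10 genes in the 4 comparisons whose arrays lie in 1 control-probe set, red where called higher, blue where called lower and grey where not called. At 0 h the 6 called genes all lie to the right of 0, led by Xbp1 at 0.93, and Dnajb9 lies farthest left in both comparisons over time.

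Before stimulation the cko arrays had higher Xbp1, Hspa5, Hsp90b1, Calr, Dnajb9 and Sdf2l1, and Pdia4, Pdia6, Edem1 and Herpud1 were not called. This is 6 higher and 0 lower of 10, where 16.3% of all genes tested were called higher and 16% lower. In limma 0 were lower at an unadjusted p under 0.05. The median over the 10 genes was 0.35 against 0.023 over all genes. At the level of probe sets 12 of 21 were called higher and 0 lower. These include every probe set of Xbp1, Hsp90b1 and Calr, so they repeat genes and are not separate from the count above. The share over all probe sets is not given here. Under median scaling 38% of all called genes were higher in place of 50.4%, and the 6 calls held. The call of Hspa5 was lost after quantile normalization (0.12) and with its second brightest probe set (0.15). A further fit had a term for the control-probe division and a single genotype difference for all times. There Sdf2l1 (0.79) and Herpud1 (0.49) were higher, Edem1 (-0.43) was lower, and Xbp1 (0.41) and the other 6 were not called. By the form of that fit its genotype difference is the mean of those at 0 and 2 h. It therefore takes nothing of the division out of the values at 0 h and does not test the calls there.

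At 2 h 5 of the 10 genes were called between the genotypes. Sdf2l1, Pdia4 and Herpud1 were called higher in cko and Calr and Edem1 lower, against 12.8% and 15.7% of all genes. Of 7 myeloid and 9 follicular B cell markers tested, 6 each were called lower in cko in this comparison. The median was -0.066 over the 10 genes and -0.022 over all genes. The difference between the 2 h responses was called lower in cko for Xbp1, Hsp90b1, Dnajb9, Calr and Hspa5 (5 of 10, with 11.8% of all genes) and higher for 0 (8.59% of all genes), with 2 higher in limma at an unadjusted p under 0.05. For Hspa5 it was -0.40 ± 0.071 with the brightest probe set and 0.061 with the second. Because this test is made from the genotype differences at 2 h and at 0 h, it repeats the values of 0 h and is not separate from them.

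Over 12 h in wild type the 10 genes split, with 4 called higher (Xbp1, Calr, Edem1 and Sdf2l1) and 3 lower (Hspa5, Dnajb9 and Herpud1). The shares of all genes were 24.8% and 23.1%, and the medians 0.12 and 0.027. From 2 to 12 h in cko, Xbp1, Pdia4 and Sdf2l1 were higher and Hspa5, Dnajb9 and Herpud1 lower, against 30.2% and 18.7%. Of the 7 myeloid markers 4 were higher and 1 lower in that comparison, and of the 9 follicular ones 6 and 3. The Xbp1 rise, 0.42 ± 0.054, was not called with the second probe set (0.25).

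The remaining comparisons cross the control-probe sets. At 2 h in wild type 7 were called higher and 1 lower (23.5% and 36.2% of all genes), and in cko 4 and 4 (23.8% and 39.2%). From 0 to 12 h in cko 5 were higher and 3 lower (25.9% and 33.1%), and from 2 to 12 h in wild type 3 were higher and 6 lower (35.3% and 22%). Between genotypes at 12 h 7 were higher in cko and 3 lower (21.4% and 29.9%), and the 12 h responses differed upward in 4 and downward in 3 (18.8% and 24.4%). The median of all genes was itself off 0 in these, at -0.24 for wild type at 2 h and -0.17 for the genotypes at 12 h. Median scaling took the higher ones among all calls from 43.9% to 60.6% for cko at 12 h and from 41.7% to 58.0% between genotypes at 12 h. Comparisons that use the same group share its arrays.

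Calls of the several probe sets of a gene agreed in some comparisons and not in others. Between genotypes at 0 h, between genotypes at 2 h and between their 2 h responses, 0 of the 7 genes with several probe sets had calls in opposite directions. From 0 to 12 h in wild type Hspa5 did, and Xbp1 did in wild type at 2 h and in cko from 2 to 12 h. In wild type from 2 to 12 h, between genotypes at 12 h and between their 12 h responses, Hspa5, Xbp1 and Edem1 did. In cko at 2 and at 12 h against 0 h Hspa5, Xbp1 and Pdia6 did. For 8 of the 21 probe sets (38.1%) all arrays of the higher actin set lay above all of the other, and for 0 the reverse held, where 12.1% and 12.8% of 21905 probe sets did. These 8 were 2 of Xbp1, 2 of Hsp90b1 and 1 each of Hspa5, Pdia6, Edem1 and Herpud1. The part of the division in the changes at 2 h was not tested.

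**Figure D4:**
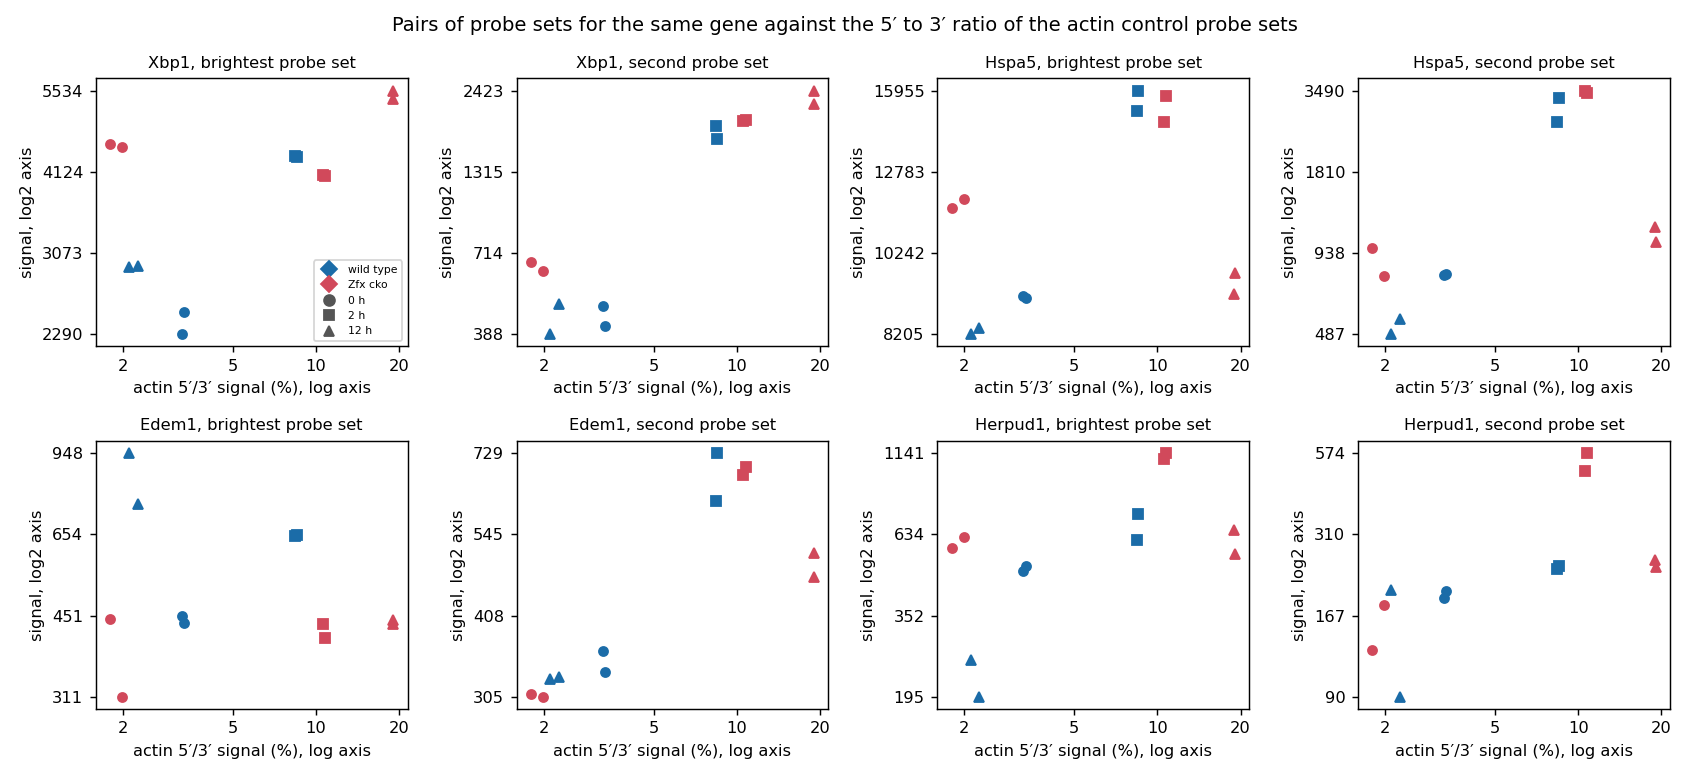
Signal (log2 axis) of the brightest and second brightest probe set of Xbp1, Hspa5, Edem1 and Herpud1 against the 5′ to 3′ signal ratio of actin in percent (log axis), 1 symbol per array, wild type blue, Zfx cko red, circles 0 h, squares 2 h and triangles 12 h. The second probe sets of Xbp1, Hspa5, Edem1 and Herpud1 lie higher on all 6 arrays with a ratio of 8.41% or more than on the 6 with 3.33% or less.

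Genes around the 10 were described from lists of ER functions. Of all genes tested 16.3% were called higher in cko and 16% lower at 0 h, and 12.8% and 15.7% at 2 h. In the PERK branch all 6 genes were higher in unstimulated cko cells (median 1.29). They included Trib3 (3.73 ± 0.53), a pseudokinase target of ATF4, Chac1 (2.42 ± 0.25), which degrades glutathione, and the transcription factor Atf3 (1.41 ± 0.12). All 6 were higher in cko at 2 h as well (median 0.96), and from 0 to 12 h in wild type 1 was higher and 4 lower. Among the other ER folding factors 6 of 19 were higher in cko at 0 h and 3 lower (median -0.015), with Sil1, the nucleotide exchange factor of BiP, at 0.92 ± 0.15, the prolyl isomerase Fkbp2 at 0.83 ± 0.15 and Creld2 at 0.72 ± 0.074. The stress sensors and their proteases had 0 higher (0 in limma at an unadjusted p under 0.05) and 4 lower of 8 (median -0.22), but for the leading genes Creb3l2 (-1.59 ± 0.23), Ern1 (-0.73 ± 0.18) and Mbtps1 (-0.32 ± 0.095) the second probe set pointed the other way (0.26, 0.18 and 0.82).

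Other ER functions were mixed at 0 h. Of 17 ERAD genes 4 were higher in cko and 6 lower, with Ube2j1, a ubiquitin conjugating enzyme of the ER membrane, at -1.01 ± 0.095 and Herpud2 at -0.74 ± 0.14, calls that their second probe sets did not carry (-0.33 and -0.42). Translocation and signal peptide cleavage had 6 higher and 2 lower of 15 (median 0.072), led by the translocon subunit Sec61b at 1.16 ± 0.17. N-glycosylation had 5 higher and 3 lower of 12, with Rpn2 of the oligosaccharyltransferase at -0.67 ± 0.16. ER to Golgi transport had 2 higher and 5 lower of 15, and Kdelr1, the receptor that returns ER residents such as BiP, led at -1.01 ± 0.14. Of 9 regulators of the plasma cell program 2 were higher and 1 lower.

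From 0 to 12 h in wild type most genes of protein entry into the ER rose. In this comparison 24.8% of all genes tested were called higher and 23.1% lower. Translocation and signal peptide cleavage had 12 higher and 1 lower of 15 (median 0.66 against 0.027 over all genes), with Ssr4 at 1.29 ± 0.064, Sec61b at 1.26 ± 0.17 and Ssr1 at 1.12 ± 0.10. N-glycosylation had 6 higher and 0 lower of 12, with 0 lower in limma at an unadjusted p under 0.05 (median 0.44), among them the oligosaccharyltransferase subunits Dad1 (0.94 ± 0.070), Ostc (0.89 ± 0.083, and -0.49 with its second probe set) and Stt3a (0.77 ± 0.063). Of the other folding factors 10 of 19 were higher and 3 lower, and the oxidase Ero1b fell by 1.59 ± 0.091. Of 9 regulators of the plasma cell program 1, Irf4 (1.45 ± 0.054, and 0.34 and not called with its second probe set), was higher and 4 were lower, with Bcl6, the repressor of plasma cell differentiation, at -1.34 ± 0.18.

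**Figure D5:**
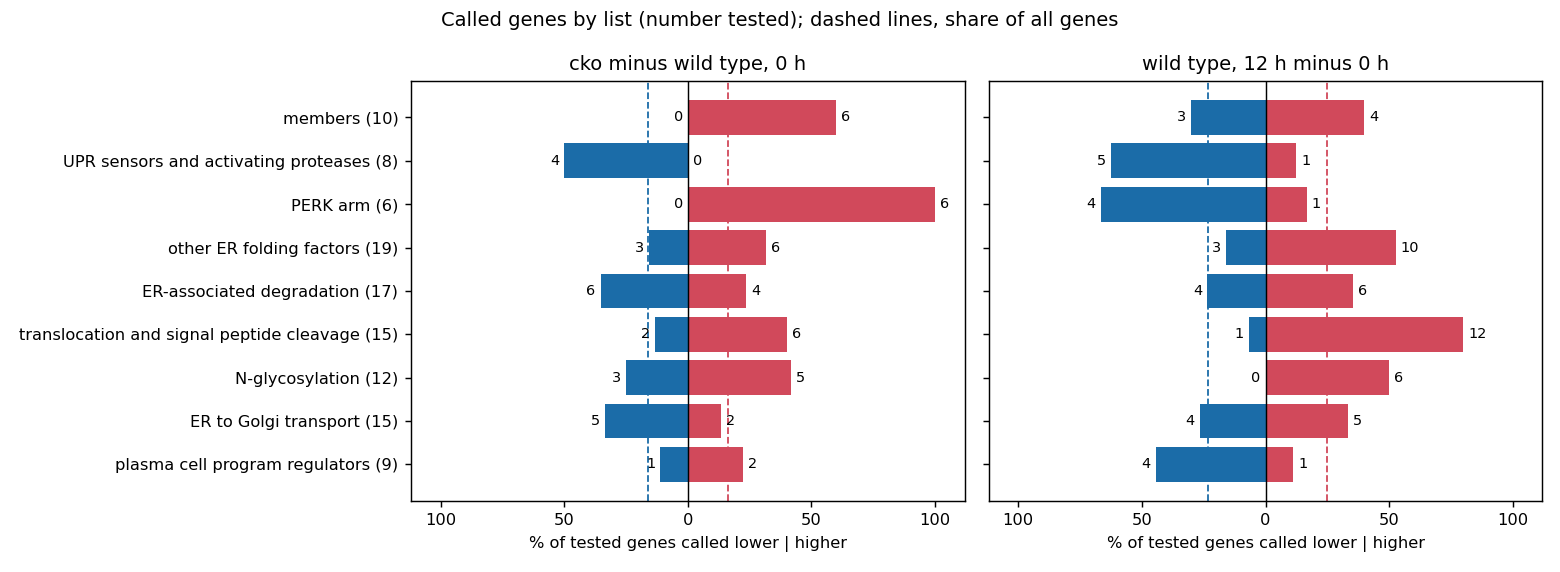
Percent of the tested genes of each list called higher (red, right) or lower (blue, left) in cko against wild type at 0 h and in wild type at 12 h against 0 h, with the numbers called beside the bars, the number tested in parentheses and the share of all 12190 genes as dashed lines. The 6 PERK branch genes are all higher at 0 h, and 12 of 15 translocation genes are higher at 12 h.

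Markers of other cells moved with genotype and time, and not all lists went the same way at 0 h. For the counts that follow, the shares of all genes in each comparison are those given above. At 0 h the summed signal of 8 plasma cell markers was 9474 to 9583 in wild type and 7929 to 8086 in cko, where 0 were called higher in limma (0 at an unadjusted p under 0.05) and 2 lower (Sdc1 -0.76 ± 0.22 and Jchain -0.47 ± 0.10). The sum of 8 myeloid markers was 21030 to 21982 and 12119 to 12261, and of the 7 tested 2 were called higher in cko and 3 lower. S100a8 and S100a9, which make up most of that sum in wild type, were among the lower ones (S100a9 -2.04 ± 0.093), and Csf1r (0.93 ± 0.11) and Cst3 (0.30 ± 0.073) were the higher ones. The myeloid sum at 2 h was 12478 to 12698 in wild type and 2698 to 2983 in cko, with 6 of 7 called lower in cko and 0 higher (0 in limma at an unadjusted p under 0.05). At 12 h it was 10351 to 11387 and 5575 to 5765. From 2 to 12 h in cko 4 of the 7 were called higher and 1 lower, and from 0 to 12 h in wild type 1 and 4. The plasma cell sum was 6946 to 7319 and 5674 to 6010.5 at 2 h. For 3 erythroid markers the sum was 401 to 403 in wild type and 126 to 174 in cko at 0 h, and 221 to 242 and 67.4 to 67.8 at 2 h. The sum of 6 T and NK cell markers at 0 h was 645 to 655 in wild type and 709 to 717 in cko. Of the 4 tested, 1 was called higher in cko and 0 lower (0 in limma at an unadjusted p under 0.05). For 4 immature B cell markers it was 393 to 430 and 402 to 458 at 0 h, and 0 of the 3 tested were called either way. The part of these cells in the values of the 10 genes was not tested.

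Of 37 genes with ERSE in the promoter window 14 were tested, the 4 named above and 10 others. Of these 10, Creld2 and Syvn1 were higher in cko at 0 h (0.72 ± 0.074 and 0.24 ± 0.069) and Pan2 was lower (-0.40 ± 0.13), genes named after their values were seen. That is 2 higher and 1 lower of 10, where 16.3% of all genes were called higher and 16% lower. Among the 4, Hspa5, Hsp90b1 and Calr were called higher and Pdia6 was not. Xbp1, Dnajb9 and Sdf2l1, which were also higher, have neither ERSE nor ERSE-II in the window.

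The 10 genes did not share one pattern over the 12 arrays. Pearson's r over the arrays ran from -0.68 for Calr with Herpud1 to 0.85 for Xbp1 with Hsp90b1, with a median of -0.0075 over the 45 pairs and 23 pairs below 0. These values also hold what the arrays of a control-probe set share. The tested genes most like Xbp1 were Creld2 (r = 0.96), Hells (r = 0.96), Sertad3 (r = 0.95), Bag2 (r = 0.95) and Asb4 (r = 0.94). Those most like Hspa5 were Pim3 (r = 0.98), Sertad1 (r = 0.98), Rbm47 (r = 0.97), Atf3 (r = 0.97) and Hivep2 (r = 0.97). Creld2 carries ERSE and belongs to the folding factors above, and Atf3 to the PERK branch. For Xbp1 7 genes exceeded an r of 0.9 and for Hspa5 84.

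The span between the lowest and the highest group mean was widest for Dnajb9, with 7.81-fold between cko at 0 h and cko at 12 h, and narrowest for Calr, with 1.55-fold. Both spans cross the control-probe sets, as do those of the other genes except Pdia4, Edem1 and Sdf2l1. The part of that division in the spans was not tested. On the log2 scale the spans were 2.94 and 0.63, where the median over all genes tested was 1.32. Wild type at 0 h was the lowest group for Xbp1, and wild type at 12 h for Hspa5, Hsp90b1 and Herpud1. Cko at 12 h was the highest for Xbp1, Pdia4 and Sdf2l1 and the lowest for Calr and Dnajb9. Of these lowest groups, those of Hsp90b1 (with wild type at 0 h) and Calr (with cko at 2 h) were not called different from the next group. Neighbours at the top were likewise not called different for Hspa5 and Hsp90b1 (both genotypes at 2 h), Calr (cko at 0 h and wild type at 12 h) or Pdia6 (cko at 12 h and wild type at 2 h).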

How the data were processed

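GCOS 1.4 made the signals, per the submitters' processing notes. The authors deposited 1 linear intensity for each probe set and array, and the 2% trimmed mean was found to be 250 on every array. The sources used here do not give the algorithm. All 12 columns matched a sample by name and 0 had none. From the intensities log2(signal + 16) was taken with no further normalization. Probe sets with 1 gene symbol (34945 of 45101) and a mean above the 40th percentile (5.14) were kept, and a gene took its brightest, which left 12190 genes.

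Group means over all 12 arrays were fitted with limma 3.58.1 in R 4.3.3 (6 residual degrees of freedom), with eBayes and an intensity trend, for 11 comparisons. Tests were two-sided, with Benjamini-Hochberg adjustment over all genes. Single probe sets were tested in a like fit on 21905. The procedure was tested on simulated data. Alternatives were other scalings, pseudocounts, filters, probe sets, blocks and sets of arrays.

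The 10 genes and the lists were chosen with earlier results of these data known. Named are all 10, of each list up to 3 called genes with the largest differences, and the 5 genes most correlated with Xbp1 and with Hspa5. Protein sequences and probe coordinates were not used here.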

Additional observations from a re-analysis of the deposited data

Results flagged for a closer look

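The responses to anti-IgM differed between the genotypes in 12 tests of a member's response against time 0, 5 of 10 at 2 h and 7 of 10 at 12 h. Of all genes 20.4% were called either way in that test at 2 h and 43.2% at 12 h. At 2 h the cko response was the lower one for Xbp1 (-1.03), Hsp90b1 (-0.89), Dnajb9 (-0.58), Calr (-0.52) and Hspa5 (-0.40). Each of these was higher in cko at 0 h, and by the brightest probe sets the genotypes lay close together or, for Calr, in reverse order at 2 h. For Xbp1 the test at 12 h, -0.031, was not called, while the other probe sets gave 1.85, 0.72 and -1.53, each called, and median scaling 0.26, called higher.

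At 12 h the cko response was lower for Dnajb9 (-1.15), Calr (-0.97) and Edem1 (-0.68). It was higher for Pdia4 (1.14), Herpud1 (1.10), Pdia6 (0.87) and Hsp90b1 (0.55). The cko arrays of 12 h lie in the control-probe set with the higher actin ratio and the other 3 groups of this test in the lower one, and the part of that division was not tested. With the second probe set the value for Edem1 was 0.73 and that for Pdia6 -0.33. Under median scaling Edem1 was at -0.38 and not called. The call for Pdia4, a dim gene, was lost with a pseudocount of 1 and without the filter. It was also lost without any 1 of the cko arrays at 0 and 12 h, without the second wild type array of 0 h and without the first of 12 h.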

How the results depend on the processing

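Leaving out an array changed no direction of a called member difference. The members called then numbered 6 to 8 in wild type at 2 h, 6 to 8 in wild type at 12 h, 8 to 9 from 2 to 12 h, 6 to 8 in cko at 2 h, 7 to 8 at 12 h and 5 to 6 from 2 to 12 h. They numbered 6 to 7 between genotypes at 0 h, 3 to 5 at 2 h (3 without the first wild type or the first cko array of 2 h), 9 to 10 at 12 h, and 5 to 6 and 5 to 8 for the responses at 2 and 12 h.

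Quantile normalization reversed Calr -0.019 in wild type from 2 to 12 h and Hspa5 0.33 in the 12 h responses, and median scaling Xbp1 0.13 in cko at 2 h and Xbp1 0.26 in the 12 h responses. Median scaling moved the median of all genes from -0.24 to -0.043 in wild type at 2 h, from -0.32 to -0.032 in cko at 2 h, from -0.20 to 0.091 in cko at 12 h, from -0.17 to 0.043 between genotypes at 12 h and from -0.17 to 0.12 for the 12 h responses. The share of calls that were higher moved from 61.6% to 50.6% in wild type from 2 to 12 h, 37.8% to 51.1% in cko at 2 h, 43.9% to 60.6% in cko at 12 h, 41.7% to 58.0% between genotypes at 12 h, 42.0% to 56.4% for the 2 h responses and 43.5% to 64.9% for the 12 h responses.

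Averaging the probe sets of a gene reversed Xbp1 0.32 in the genotypes at 2 h; Edem1 -0.32 in wild type from 2 to 12 h; Xbp1 0.38 in cko at 2 h; Xbp1 -0.012 in cko from 2 to 12 h; Edem1 0.024 in the 12 h responses. The second brightest probe set reversed Edem1 0.030 in the genotypes at 2 h; Pdia6 -0.28 and Edem1 0.56 in the genotypes at 12 h; Pdia6 -0.19 in wild type at 2 h; Xbp1 -0.035 and Edem1 -0.082 in wild type at 12 h; Edem1 -1.004 in wild type from 2 to 12 h; Xbp1 1.56 and Pdia6 -0.68 in cko at 2 h; Hspa5 0.31 and Pdia6 -0.70 in cko at 12 h; Edem1 -0.47 in cko from 2 to 12 h; Hspa5 0.061 in the 2 h responses; Xbp1 1.85, Hspa5 0.90, Pdia6 -0.33 and Edem1 0.73 in the 12 h responses. With averages, 1594 genes in place of 2491 had responses that differed at 2 h, and with the second probe set 1489. The second probe set also gave 4 members in place of 7 in wild type at 12 h, 3 in place of 5 between genotypes at 2 h, and 2264 genes in place of 3469 there.

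A term for the control-probe division, with 1 genotype difference for all times and 1 change per time for both genotypes, called 4 members at 2 h, 4 at 12 h and 3 between genotypes. It called 4708 genes at 2 h (7277 in wild type and 7684 in cko without it), 5090 at 12 h (5842 and 7184) and 3061 between genotypes (3938, 3469 and 6258 at 0, 2 and 12 h). These fits differ in form as well. In the fit with the term, the division is the genotype difference at 12 h minus the mean of those at 0 and 2 h. A genotype difference particular to 12 h therefore cannot be told apart from the division. The changes over time take up the same term, so the reversals below follow from the form of the fit. The fit with the term reversed Calr 0.078 in the genotypes at 2 h; Pdia6 -0.15, Calr 0.078 and Dnajb9 0.29 in the genotypes at 12 h; Xbp1 -0.13, Hsp90b1 -0.059 and Herpud1 -0.21 in wild type at 2 h; Hsp90b1 -0.059, Pdia4 -1.11, Calr 0.46, Dnajb9 0.78 and Herpud1 -0.21 in cko at 2 h; Hsp90b1 -0.29, Pdia4 -0.22, Calr 0.26 and Herpud1 -0.98 in cko at 12 h. Whether the division or the genotype lies behind these values was not tested.

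Replicate numbers did not pair the arrays, since the deviations of same-numbered arrays correlated at -0.014 to 0.013 over 15 pairs of groups. With the replicate number as a block 109 of 110 member differences kept their call, and the exception was Edem1 in wild type from 2 to 12 h (0.37). Only the 6 arrays of 1 set, a fit added after the data were seen, kept 39 of 40. The number of arrays limits the precision.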

Other observations

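Between genotypes at 2 h some genes around the 10 differed more than any of the 10. The lists hold more genes, so their largest values do not compare them with the 10. Of all genes tested 12.8% were called higher in cko and 15.7% lower. Kdelr1, which retrieves BiP and other residents to the ER, was lower in cko (-2.16 ± 0.14). Of 17 ERAD genes 4 were higher and 8 lower (median -0.21 against -0.022 over all genes), with the ATPase Vcp at -1.20 ± 0.084, Ube2j1 at -1.19 ± 0.095 and Herpud2 at -0.74 ± 0.14. Among the other folding factors 3 of 19 were higher and 4 lower, led by Dnajc3, an inhibitor of PERK and a J protein of the ER, at -1.15 ± 0.19. The sensor Ern1, which encodes IRE1, was lower in cko (-1.15 ± 0.18), and with its second probe set this was -0.31 and not called. In the PERK branch Trib3 stood at 3.54 ± 0.53 and Chac1 at 2.53 ± 0.25. Among the genes named here a second probe set is given for Ern1 alone.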
